A study of Mus musculus with 16 samples.

Results

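The 10 genes described here are Reg3a, Reg3b, Reg3g, Reg4, Retnlb, Itln1, Lyz1, Pla2g2a, Lcn2 and S100a8. These genes encode lectins, a protein of the resistin family, a lysozyme, a phospholipase and metal- or siderophore-binding proteins that gut epithelium and neutrophils release against microbes. They were picked by gene name, and all 10 of them, out of 36870 gene names on the array, had probes that passed the filter on dim probes. Their RNA was measured in the colon of 16 outbred RjOrl:SWISS mouse pups, 8 in each of the CSD and VD groups, at weaning (3 weeks). Pups of the CSD (C-section delivery, HYS in the labels) group were obtained by hysterectomy near term. They were reared by foster dams with a recent vaginal birth of their own. In the VD (vaginal delivery) group, pups were born vaginally and litters were exchanged between mothers. Mothers and pups of both groups were kept under specific pathogen-free conditions. The CSD pups came from mother 3 and mother 4, with 2 females and 2 males each. The VD pups came from mother 5, with 2 females and 3 males, and from mother 6, with 3 males. Delivery mode thus varied only between litters, 2 per mode, and the litter of mother 6 held no females.

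These proteins form the chemical part of the gut barrier. Reg3 lectins bind the cell walls of bacteria and are induced in epithelial cells by microbial signals through IL-22 and STAT3. Resistin-like beta (Retnlb) and intelectin 1 (Itln1) are released by goblet cells and, for intelectin, Paneth cells, and both are known to respond to type 2 cytokines and to helminths. Lysozyme cleaves peptidoglycan and secreted phospholipase A2 cleaves bacterial membrane phospholipids; both belong to the granules of Paneth cells, which are a small intestinal cell type and rare in the healthy mouse colon. Lipocalin 2 (Lcn2) captures bacterial siderophores, and S100a8 is a subunit of calprotectin, which withholds zinc and manganese.

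Values are log2 intensities of a 1-colour array after background correction and quantile normalization, with an offset of 50 added at the correction. A difference of 1 on that scale is a doubling of signal plus offset, so the change of a dim gene is understated. Spots well above their local background made up 61.6% to 64.5% of the spots on the CSD arrays (median 63.8%) and 58.7% to 64.9% on the VD arrays (median 64.3%), and no spot was saturated on any array. The lowest share belonged to VD pup 11. The labelled sexes were matched in all 16 pups by the sex-linked genes: Xist ranged from 9.09 to 9.36 in the 6 females and from 5.91 to 6.18 in the 10 males, and Eif2s3y was at 9.74 or above in males and at 6.02 or below in females. Of the posterior Hox genes, which mark the colon, 8 of 9 were well above background in all 16 pups. Of 12 small intestine markers, 5 were so in all pups (Fabp2, Fabp6, Slc5a1, Slc10a2 and Rbp2) and 5 in none (Apoa1, Apoa4, Lct, Fabp1 and Sis).

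Between CSD and VD pups, none of the 10 genes was called, a call being a Benjamini-Hochberg adjusted p under 0.05 in limma over all 36711 genes tested. In the same comparison 460 genes, or 1.25%, were called, 259 higher in the CSD group (0.706%) and 201 lower (0.548%). At an unadjusted p under 0.05, Reg4, Pla2g2a and Lyz1 passed, 3 of 10, where 14.5% of all genes did. The groups overlapped for each of the 10 genes, against 0.493% of genes whose groups did not. In whole tissue, fewer cells of a type and less RNA per cell cannot be told apart. The pups of a delivery mode differed widely in 3 of these genes. The SD of all 16 pups about their delivery-mode means was 2.58 for Itln1, 2.50 for Retnlb and 1.51 for Pla2g2a. Each was higher than in 99.9% of all genes, whose median SD was 0.098. At the other end, it was 0.086 for Reg3a and 0.156 for Lcn2. Within CSD and within VD pups, the SD was 2.14 and 3.11 for Itln1, 2.60 and 2.57 for Retnlb, and 2.07 and 0.79 for Pla2g2a. Pla2g2a was well above background in only 1 of the 8 VD pups.

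**Figure D1:**
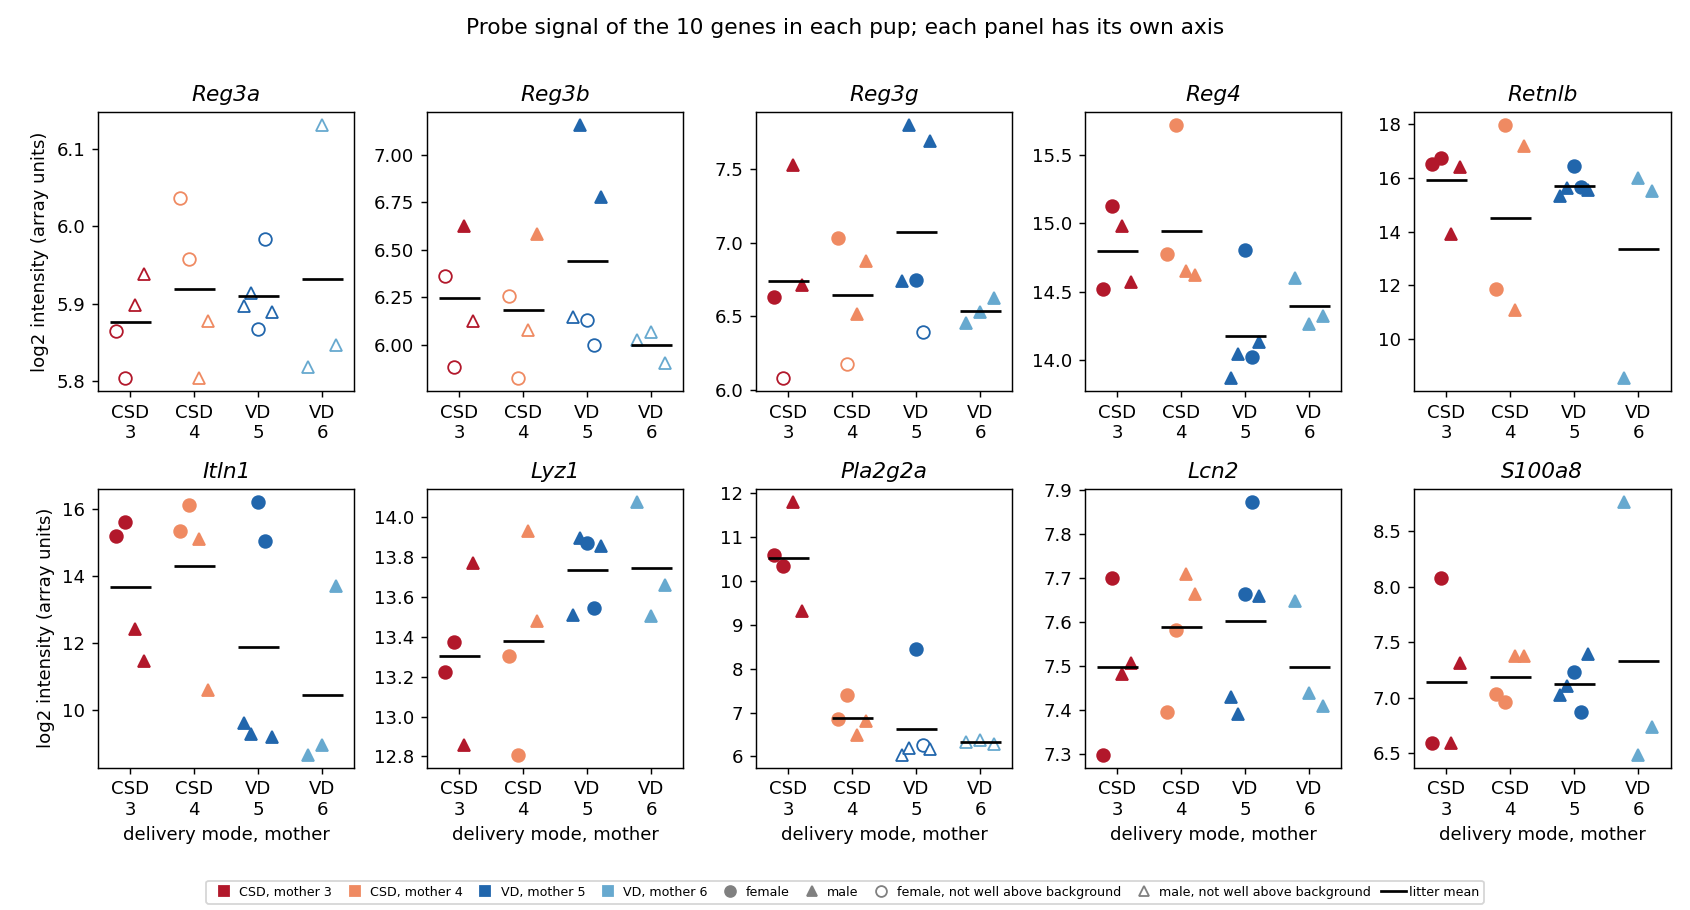
Log2 intensity (vertical axis, array units, a separate axis per gene) of the 10 genes in each of the 16 pups, grouped by delivery mode and mother; circles are females, triangles males, open symbols arrays where no probe of the gene was well above background, and bars litter means. Itln1 is at 15.0 or above in every female, Pla2g2a is highest in the 4 pups of mother 3, and Retnlb is low in 3 pups.

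The 3 Reg3 genes lie together on chromosome 6, and they were dim in these colons. Reg3a was well above background on none of the 16 arrays, with values from 5.80 to 6.04 in CSD pups (median 5.89) and from 5.82 to 6.13 in VD pups (median 5.89), so no fold change is given for it. Reg3b was well above background in 2 CSD and 2 VD pups and Reg3g in 6 CSD and 7 VD pups.

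Reg3b had values from 5.83 to 6.62 in CSD pups (median 6.19) and from 5.91 to 7.16 in VD pups (median 6.10). Reg3g, its close relative, had values from 6.08 to 7.53 in CSD pups (median 6.67) and from 6.39 to 7.80 in VD pups (median 6.68). For both genes the highest values were those of VD pups 11 and 9, 2 males of mother 5, and the groups overlapped over most of their range. The log2 fold change, CSD minus VD, was 0.02 ± 0.18 (SE) for Reg3b and -0.07 ± 0.24 (SE) for Reg3g, with limma adjusted p of 0.981 and 0.931. With most pups at background for Reg3b, these values follow the background correction. From the scanner-corrected intensity, quantile normalized, they were 0.34 ± 0.77 (SE) for Reg3b and -0.35 ± 0.69 (SE) for Reg3g, neither called.

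Values of Reg3b and Reg3g were correlated over the pups, with Reg3b at background in 12 of the 16. Their correlation over the 16 pups was r = 0.921 (Spearman's rho 0.926), each with a permutation p of 1e-05, the smallest that 100000 resamples can give, and an adjusted p of 0.00045 over the 45 pairs of the 10 genes. It was 0.837 without VD pups 11 and 9, the pups farthest from the median of Reg3b, after which no VD pup is well above background for Reg3b. No r is given within a delivery mode, where Reg3b was well above background in 2 of 8 pups. Of the 45 pairs, this was the one pair with an adjusted p under 0.05 for both r and rho. The start regions of this pair are therefore set side by side, although most of the Reg3b values behind r and rho were at background. Start regions of 8 of the 10 genes, from RefSeq (build GRCm38.p6), were used here. The 250 bases before the start of Reg3b (chr6:78370635-78370884, + strand) and of Reg3g (chr6:78468875-78469124, - strand) are printed 5′ to 3′, with capitals marking TATAAA (on either strand) and TTCNNNGAA, the palindrome that STAT factors bind.
Reg3b: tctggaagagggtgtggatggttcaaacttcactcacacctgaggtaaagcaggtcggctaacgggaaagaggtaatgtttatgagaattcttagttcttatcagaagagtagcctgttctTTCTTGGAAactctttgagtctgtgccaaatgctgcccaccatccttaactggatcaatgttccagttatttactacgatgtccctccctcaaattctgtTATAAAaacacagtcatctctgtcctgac
Reg3g: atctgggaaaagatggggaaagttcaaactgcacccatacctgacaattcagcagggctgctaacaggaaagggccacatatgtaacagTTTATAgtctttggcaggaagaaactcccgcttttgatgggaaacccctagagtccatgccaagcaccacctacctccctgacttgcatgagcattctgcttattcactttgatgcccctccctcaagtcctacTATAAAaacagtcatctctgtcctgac

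Both sequences end in the same run of 20 bases, and without gaps they were identical at 132 of 248 positions (53.2%) at the best shift. TATAAA stood 29 bases before the start in Reg3b and 27 bases before it in Reg3g, and Reg3g held a second match on the other strand, 161 bases before the start. TTCNNNGAA was found in Reg3b, 129 bases before the start, and not in Reg3g. Of all 32851 regions of this length, 12.4% held TATAAA and 7.02% held TTCNNNGAA, searched on both strands. Among the start regions of the other members, S100a8 held TATAAA 30 bases before the start.

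In Reg3g the 3 pups of mother 6 lay close together, and the pups of the other litters were spread out. In Reg3b none of the 3 pups of mother 6 was well above background. Mean Reg3g was 7.08 ± 0.63 (SD, n = 5) in the litter of mother 5 and 6.54 ± 0.08 (SD, n = 3) in that of mother 6. With sex in the model, mother 6 minus mother 5 was -0.77 ± 0.30 (SE) on the log2 scale for Reg3g, with an unadjusted p of 0.0208. For Reg3b no fold change is given between these litters. Neither gene passed limma's adjustment (0.305 and 0.265), and none of the 10 genes was called between these litters, where 0.874% of genes were. At an unadjusted p under 0.05 these 2 of 10 passed, Reg3b with 1 litter at background, where 11.5% of genes did. Between the CSD litters, Reg3g means were 6.74 ± 0.60 (SD, n = 4) for mother 3 and 6.65 ± 0.38 (SD, n = 4) for mother 4.

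Pups of both modes, 4 and 4, shared each of 2 array slides. On slide 1 alone and on slide 2 alone, the log2 fold change, CSD minus VD, was 0.29 and -0.44 for Reg3g, and with the slide as a fixed effect it was -0.06. For Reg3b it was 0.29 on slide 1, and 0.02 with the slide as a fixed effect; on slide 2 no CSD pup was well above background, so there is no measured fold change. It was 0.68 and 0.40 for Reg4, -0.39 and -0.30 for Lyz1, and 1.52 and 1.63 for Itln1, so these 3 kept their direction on either slide. For Pla2g2a it was 1.19 on slide 2, and on slide 1 no VD pup was well above background. It was -0.58 and 0.67 for Retnlb, -0.15 and 0.07 for Lcn2, and -0.01 and -0.02 for S100a8. None of the 10 genes was called within a slide, where 12 of all genes were called on slide 1 and none on slide 2.

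Reg4, a lectin made by the deep crypt secretory cells of the mouse colon, lies at chr3:98037005-98040251 (mm9, the position the array design gives its probe). Its values were 14.5 to 15.7 in CSD pups (median 14.7) and 13.9 to 14.8 in VD pups (median 14.2). Only VD pup 4 and VD pup 6 reached the range of the CSD pups. The log2 fold change, CSD minus VD, was 0.54 ± 0.17 (SE, 95% confidence interval from 0.18 to 0.90), with an unadjusted p of 0.00557 and a limma adjusted p of 0.130. The group means differed by 0.61 in an exact two-sided permutation test over the 12870 assignments of the pups (p = 0.00295), which takes no account of litters. Litter means were 14.80 (mother 3) and 14.94 (mother 4) in the CSD group, and 14.17 (mother 5) and 14.40 (mother 6) in the VD group, so both CSD litters lay above both VD litters. Without the litter of mother 5 the log2 fold change, CSD minus VD, fell to 0.31 ± 0.23 (SE, limma adjusted p 0.710). Of the 7 deep crypt secretory cell markers, which include Reg4, none was called, with a median log2 fold change of 0.02 against 0.003 over all genes. The one with the next smallest p was the Notch ligand Dll4, at -0.15 (adjusted p 0.318). Their summed signal was 17.3 to 18.0 in CSD pups (median 17.5) and 17.1 to 17.6 in VD pups (median 17.3), with Agr2 the brightest. The part of these cells in the Reg4 difference was not tested.

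Retnlb, a goblet cell protein of the resistin family that binds bacterial lipids, lies at chr16:48818874-48818933 (mm9). In CSD pups it was 11.1 at the lowest, 16.5 at the median and 18.0 at the highest, and in VD pups 8.54, 15.6 and 16.4. Most pups lay within a few units of the median, and 3 pups lay apart on the low side, CSD pup 6 (11.1), CSD pup 1 (11.8) and VD pup 6 (8.54), from mothers 4, 4 and 6. From the lowest to the highest pup the value on this scale, offset included, differed 695-fold. The log2 fold change, CSD minus VD, was 0.07 ± 1.25 (SE, 95% confidence interval from -2.60 to 2.73), with a limma adjusted p of 0.988, an interval too wide to tell a large difference from none.

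Itln1, a lectin for microbial sugars, was read by 3 probes, of which one lies at chr1:173448282-173448341 (mm9) and the other two carry no position in the array design. Those 2 are printed because the agreement of the probes is what the Itln1 values rest on. Capitals mark the 30 bases in which they overlap, the end of A_55_P2035117 on the start of A_55_P2723934, and within these the probes differ at 1 base, G36T, counted from the 5′ end of A_55_P2035117.
A_55_P2035117: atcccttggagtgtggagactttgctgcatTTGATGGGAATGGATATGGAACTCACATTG
A_55_P2723934: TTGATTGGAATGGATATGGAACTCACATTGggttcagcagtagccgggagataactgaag

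Over the 16 pups the 3 probes had correlations from 0.995 to 0.998 with one another, as a description of probes on the same arrays. The gene Itlnb, a near-identical copy of Itln1, had r = 0.997 with it (delivery-mode means removed), and its probe shared a run of 17 bases with the Itln1 probe that has a position and at most 5 with the others. Signals of the 2 genes may therefore be shared, and the values stand for intelectin RNA of either copy.

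Itln1 values were 10.6 at the lowest, 15.1 at the median and 16.1 at the highest in CSD pups, and 8.65, 9.45 and 16.2 in VD pups. From the lowest to the highest pup the value on this scale, offset included, differed 188-fold. The females lay apart from most males. The 6 females, 4 from CSD and 2 from VD litters, lay between 15.0 and 16.2, and the 10 males between 8.65 and 15.1 (median 10.1). Among males, CSD pup 6 was at 15.1 and the other CSD males at 12.4, 11.5 and 10.6. VD pup 8 was at 13.7 and the other 5 VD males lay from 8.65 to 9.62.

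Male minus female, with delivery mode in the model, was -4.27 ± 0.81 (SE, 95% confidence interval from -6.00 to -2.54) on the log2 scale for Itln1. Its unadjusted p of 8.72e-05 ranked 28th of all genes, and the limma adjusted p was 0.114, so Itln1 was not called between the sexes; none of the 10 genes was, where 0.0599% of genes (22) were, and at an unadjusted p under 0.05 Itln1 alone passed, 1 of 10, where 6.45% of genes did. Without CSD pup 6 the value was -4.86 (adjusted p 0.0114) and without VD pup 8 it was -4.56 (adjusted p 0.0137), so without either of these males it was called. It was not called without any other single pup (adjusted p up to 0.434, and -3.77 without VD pup 4, a female) or litter, the value without the litter of mother 5 being -3.18 (adjusted p 0.765). An exact two-sided permutation test over the 8008 assignments of sex, added after the values were seen, gave p = 0.000749 for the difference of means of -4.69. Within CSD pups the difference was -3.18, with an exact permutation p of 0.0286, the smallest that 70 assignments can give. For Itlnb, male minus female was -3.91 ± 0.74 (SE, adjusted p 0.114).

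**Figure D2:**
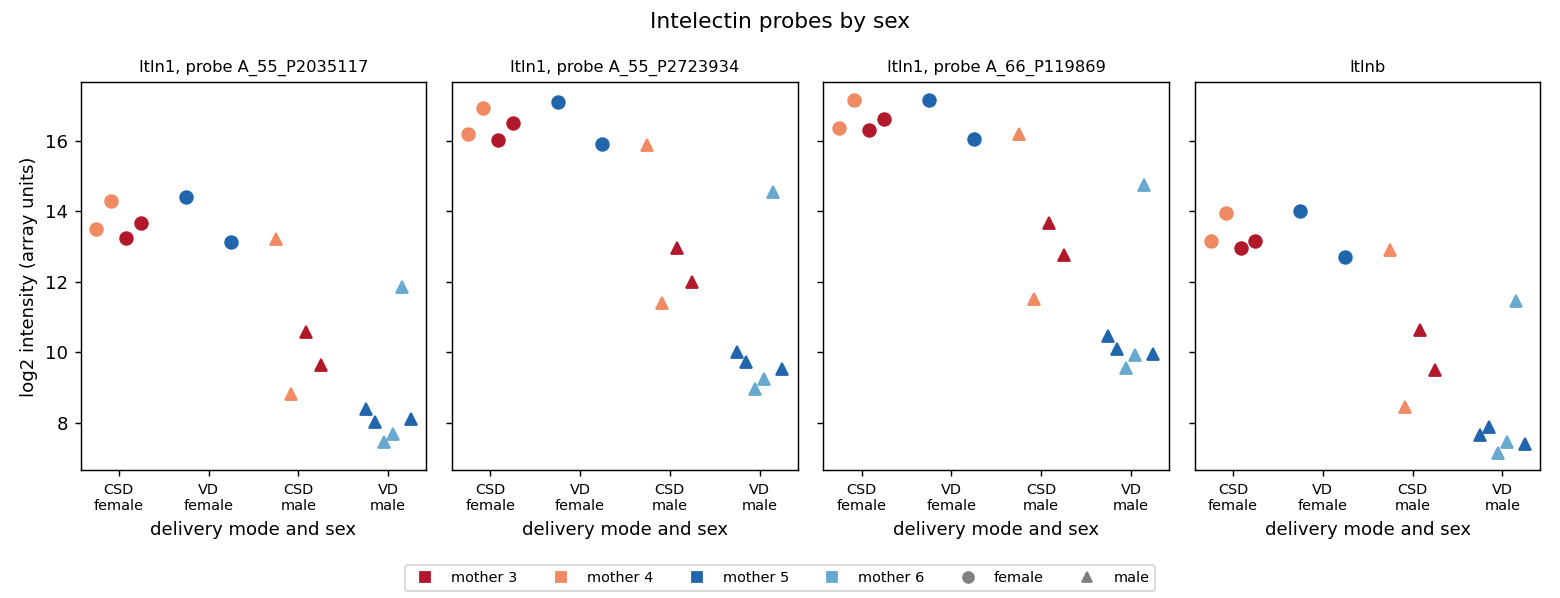
Log2 intensity (vertical axis, array units) of the 3 Itln1 probes and of the Itlnb probe in each pup, by delivery mode and sex (horizontal axis), coloured by mother. On each probe all 6 females are high, and among males CSD pup 6 and VD pup 8 stand with or near them.

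The delivery difference of Itln1 has to be read within the sexes, since the VD group held 6 males and the CSD group 4. With sex in the model, CSD minus VD was 1.57 ± 0.81 (SE, 95% confidence interval from -0.15 to 3.29; limma adjusted p 0.400). In males alone it was 2.48 (adjusted p 0.555) and in females alone, 4 CSD against 2 VD, it was -0.06 (adjusted p 0.975). Without sex in the model it was 2.64 (adjusted p 0.282), and with litter means as samples, which leave sex out, 2.82 (adjusted p 0.284). The delivery by sex interaction was 2.57 ± 1.56 (SE), with an adjusted p of 0.981. No member was called for the interaction, where 0.00272% of genes (1) were, and at an unadjusted p under 0.05 Lcn2 passed (0.37, adjusted p 0.981), 1 of 10, where 4.72% of genes did. Leaving out CSD pup 6 brought the delivery difference from 1.57 to 0.91.

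Lyz1, the lysozyme of Paneth cells, lies at chr10:116724862-116724921 (mm9), next to Lyz2, the lysozyme of macrophages. Lyz1 was 12.8 at the lowest, 13.3 at the median and 13.9 at the highest in CSD pups, and 13.5, 13.8 and 14.1 in VD pups. The VD pups lay in a narrow band at the upper end of the CSD range. CSD minus VD was -0.34 ± 0.15 (SE, 95% confidence interval from -0.67 to -0.02), with an unadjusted p of 0.0389 and a limma adjusted p of 0.310; the exact permutation test of the means gave p = 0.0258. Without CSD pup 8 the difference was -0.22 (adjusted p 0.494).

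Lyz2 was the gene whose pattern was most like that of Lyz1 (r = 0.964 over the 16 pups with delivery-mode means removed), followed by Cd74, the invariant chain of class II antigen presentation (0.947), and the haematopoietic myosin Myo1g (0.940). The longest runs that the Lyz1 probe shared with the Lyz2 probes were 6 and 8 bases. That compares probes with one another and not the Lyz1 probe with Lyz2 RNA. Whether the Lyz1 probe also reads Lyz2 RNA was not tested, so the values of these near-identical genes may share signal. Lyz2 was -0.37 ± 0.14 (SE) on the log2 scale between CSD and VD pups (adjusted p 0.220). Of the 10 macrophage markers, Lyz2 among them, 9 had a log2 fold change below 0 and 1 above it, 3 of them at an unadjusted p under 0.05 (C1qc, Cd68 and Lyz2) and none called, with a median of -0.20 against 0.003 over all genes. All 10 were well above background on all arrays, and Cd14 was the brightest. Their summed signal was 14.39, 14.47, 14.51 and 14.74 in the pups of mother 3 and 14.26, 14.48, 14.63 and 14.76 in those of mother 4. It was 14.62, 14.77, 14.80, 14.81 and 14.83 in the pups of mother 5 and 14.55, 14.70 and 14.81 in those of mother 6. Of the 14 Paneth cell markers 10 were measured; 5 of these were well above background on all arrays (Ang4, Mptx1, Mptx2, Itln1 and Lyz1 itself) and 1, the defensin Defa26, on none. The part of macrophages or of Paneth cells in the Lyz1 signal was not tested.

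Pla2g2a, the secreted phospholipase A2 of group IIA, lies at chr4:138390766-138390825 (mm9). All 8 CSD pups were well above background for it and, of the VD pups, only VD pup 4. The 4 pups of mother 3 were at 9.32, 10.3, 10.6 and 11.8 and the 4 pups of mother 4 at 6.48, 6.80, 6.86 and 7.39. In the VD group, VD pup 4 was at 8.45 and the other 7 pups from 6.03 to 6.36. Thus the litter of mother 3 stood above all other pups, and the litter of mother 4 above the VD pups other than VD pup 4.

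CSD minus VD was 2.04 ± 0.76 (SE), with an unadjusted p of 0.0164 and a limma adjusted p of 0.205, and the exact permutation test of the means gave p = 0.0173. With 7 of 8 VD pups at background, the size of this value follows the background correction. It was 2.49 with an offset of 16, 2.95 in the deposited matrix, and 3.61 and 3.65 from the scanner-corrected intensity with quantile and 75th percentile scaling, and it was not called in any of these. In the fit reported, the size of this difference rested on the litter of mother 3. Without that litter it was 0.15 (adjusted p 0.884), and without the litter of mother 4 it was 3.85 (adjusted p 0.00723). The latter was the one alternative in which a member was called between CSD and VD. Both fits used the reported correction only, with most VD pups at background, so their sizes follow that correction too. Between the CSD litters, Pla2g2a was called, mother 4 minus mother 3 being -3.63 ± 0.50 (SE, 95% confidence interval from -4.70 to -2.57; limma adjusted p 0.00808). With the scanner-corrected intensity the call was lost, at -4.77 (adjusted p 0.102) with quantile and -4.82 (adjusted p 0.103) with 75th percentile scaling. In the reported fit it was the only member called there, 1 of 10, where 0.0872% of genes (32) were called, and at an unadjusted p under 0.05 it alone passed, where 7.69% of genes did. An exact permutation test within the CSD pups gave p = 0.0286, the smallest that 70 assignments can give.

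The other genes called between the CSD litters were looked up by position, since the genotype of these outbred pups at Pla2g2a is not in the labels and several inbred mouse strains are known to carry a disrupted copy of this gene. Within 1 Mb of the Pla2g2a probe, 6 of 55 genes were called (10.9%), Pla2g2a among them, against 6 of 2098 elsewhere on chromosome 4 (0.286%) and 20 of 34095 on other chromosomes (0.0587%). The window was placed around Pla2g2a because it was called in this comparison, so Pla2g2a itself adds to the share of the window. Camk2n1, an inhibitor of the kinase CaMKII, was higher in the litter of mother 4, by 1.499 ± 0.087 (SE, adjusted p 2.04e-06). Ubxn10, a ubiquitin-like domain protein of cilia, was higher there by 0.82 ± 0.07 (adjusted p 9.45e-05). Pla2g2c, another secreted phospholipase gene of the same cluster, was higher there by 0.85 ± 0.11 (adjusted p 0.00596), the opposite direction to Pla2g2a. Minos1, a subunit of the mitochondrial cristae complex, was lower there by a log2 fold change of -0.41 ± 0.07 (adjusted p 0.0414), as was an unnamed transcript at -0.43 ± 0.06 (adjusted p 0.0128). The interval of that transcript spans the Minos1 probe, so these calls may not be of separate loci. For each of these called neighbours it was the litter of mother 3 that stood apart. Their means in mothers 3, 4, 5 and 6 were 10.01, 11.51, 11.33 and 11.17 for Camk2n1. For Ubxn10 they were 6.32, 7.15, 7.22 and 7.06, and for Pla2g2c 7.34, 8.19, 8.12 and 8.26. For Minos1 they were 15.02, 14.60, 14.68 and 14.59, and for the unnamed transcript 10.78, 10.35, 10.51 and 10.43. The other genes of the phospholipase cluster, Pla2g2d, Pla2g2e, Pla2g2f and Pla2g5, had log2 fold changes of 0.19, 0.38, 0.36 and 0.64 (adjusted p 0.936, 0.0538, 0.168 and 0.124). Whether the litters differed in genotype at this region was not tested.

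**Figure D3:**
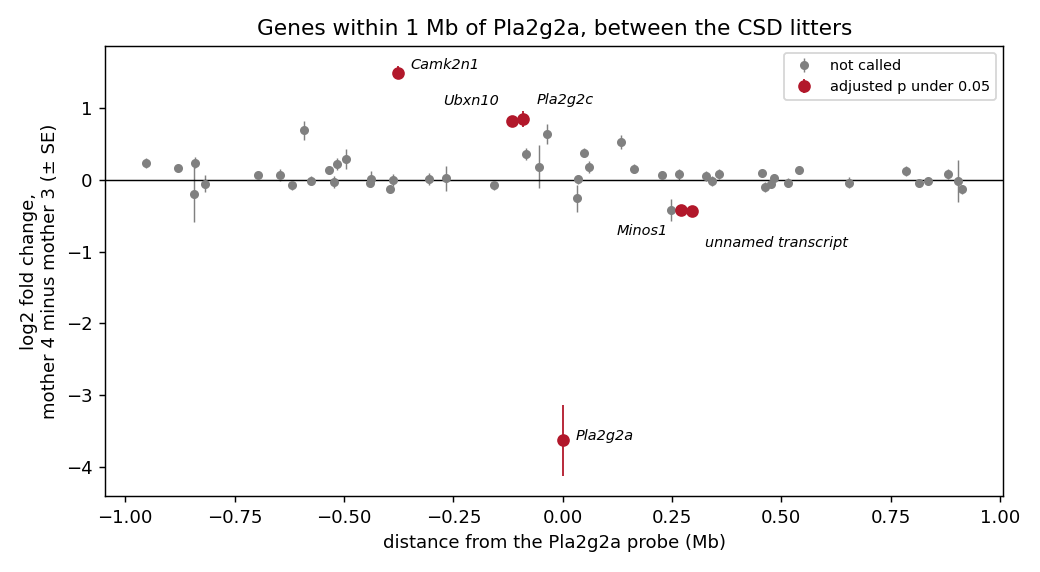
Log2 fold change between the CSD litters, mother 4 minus mother 3 (vertical axis, bars ± SE), of the 55 genes within 1 Mb of the Pla2g2a probe, against distance from that probe in Mb (horizontal axis). Red points are the 6 called genes; Pla2g2a is at -3.63, and Camk2n1, Ubxn10 and Pla2g2c lie above 0.

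The genes most like Pla2g2a over the 16 pups, with delivery-mode means removed, were the carbohydrate kinase gene Fggy (r = 0.926), the gene Miip (0.891) and the signalling adaptor Frs3 (0.886). Fggy and Miip also lie on chromosome 4, and both were called between the CSD litters, with log2 fold changes of -1.92 ± 0.13 and -2.01 ± 0.18 (SE), mother 4 minus mother 3 (adjusted p 7.18e-06 and 9.45e-05). Both were picked for likeness to Pla2g2a, which itself differed between these litters, so their litter difference is not a separate result. Of the 10 genes most like Pla2g2a, 3 lie on chromosome 4, where 5.94% of genes with a position lie. These 10 were picked with litter differences left in, so this share is not a separate result either.

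Lcn2 and S100a8, the proteins of this set that neutrophils also carry, were not called between the delivery modes. Lcn2, read by 2 probes whose correlation over the pups was 0.425, ranged from 7.30 to 7.71 in CSD pups (median 7.55) and from 7.39 to 7.87 in VD pups (median 7.54). The ranges overlapped almost whole. Means in CSD and VD pups were 6.77 and 6.80 on 1 probe and 8.31 and 8.33 on the other. At such levels the offset narrows both a difference and its interval. CSD minus VD was -0.04 ± 0.08 (SE, 95% confidence interval from -0.21 to 0.14; limma adjusted p 0.887), the narrowest interval of the 9 genes with a fold change. In females alone it was -0.27 (adjusted p 0.503) and in males alone 0.095 (adjusted p 0.748).

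S100a8, at chr3:90473778-90473837 (mm9), ranged from 6.59 to 8.07 in CSD pups (median 7.18) and from 6.48 to 8.77 in VD pups (median 7.07). VD pup 6 was the highest of all and CSD pup 5 the next. CSD minus VD was -0.02 ± 0.30 (SE, 95% confidence interval from -0.66 to 0.62; limma adjusted p 0.986). S100a9, the other subunit of calprotectin, was the gene most like it (r = 0.983), followed by the acute-phase protease inhibitor Serpina3n (0.875) and the cathelicidin gene Camp (0.870). Of the 16 neutrophil markers none was called, with a median log2 fold change of -0.02. VD pup 6 was at the extreme of 4 genes, being lowest in Retnlb (8.54) and Itln1 (8.65) and highest in Lyz1 (14.1) and S100a8 (8.77).

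**Figure D4:**
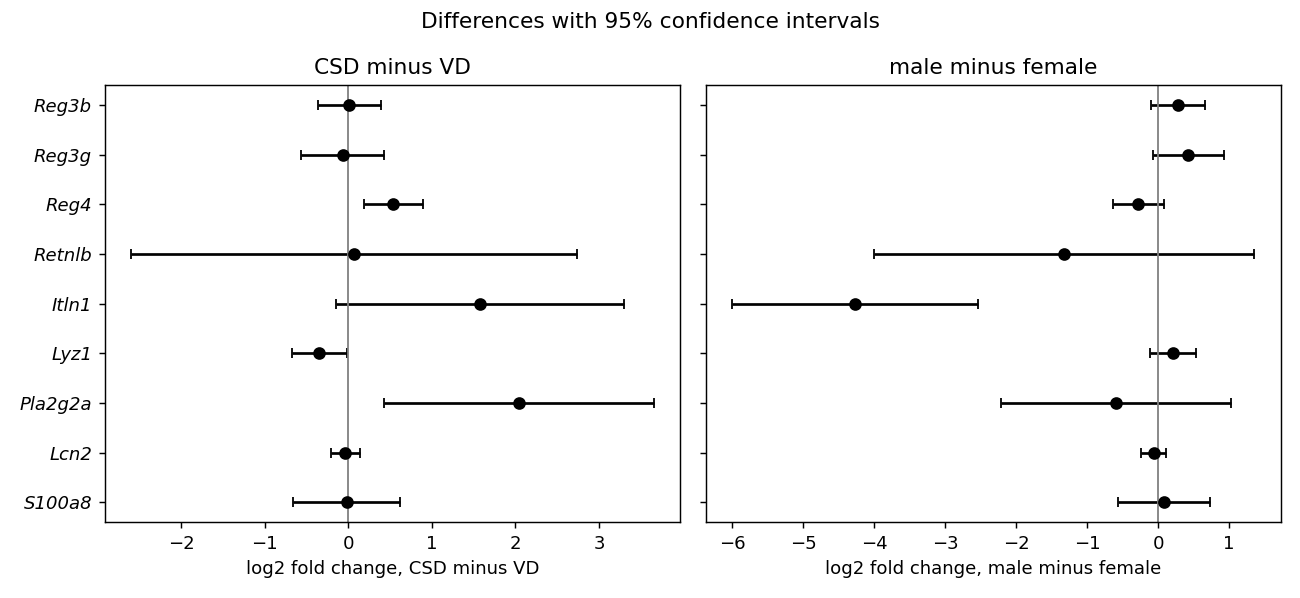
Log2 fold changes with 95% confidence intervals (horizontal axis) of the 9 genes with a fold change, CSD minus VD on the left and male minus female on the right, from limma. Values of Reg3b and Pla2g2a rest partly on pups not well above background. The widest delivery interval is that of Retnlb, from -2.60 to 2.73, and Itln1 has the lowest value between the sexes, -4.27.

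Of the 45 pairs of the 10 genes, 6 had an unadjusted permutation p under 0.05 for r, and Reg3b with Reg3g alone passed adjustment. The others of the 6 were Reg4 with Itln1 (r = 0.566, rho 0.627) and with Lyz1 (-0.557, rho -0.385; -0.674 within CSD and 0.568 within VD pups), Reg3a, at background on every array, with S100a8 (-0.545, rho -0.535), and Lyz1 with Pla2g2a and with S100a8 (0.508, rho 0.547). Itln1 and Retnlb, both goblet cell products, had r = 0.180 (rho 0.385; adjusted p 0.814 and 0.481). Lyz1 and Pla2g2a, both known from Paneth cell granules, had r = -0.514 (rho -0.529), with adjusted p of 0.283 and 0.234. Lcn2 and S100a8 had r = 0.472 (rho 0.515), with adjusted p of 0.283 and 0.249. Reg4 and Pla2g2a passed for rho (0.771, adjusted p 0.0221) but not for r (0.498, adjusted p 0.283). Their r was -0.01 within CSD pups. All correlations with Pla2g2a include 7 VD pups in which it was at background, so none is given within VD pups. Without CSD pup 2 and VD pup 10, the pups farthest from the median of Reg4, it was 0.673. Litters and sexes are shared by all of these values, so the pups are not fully independent.

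**Figure D5:**
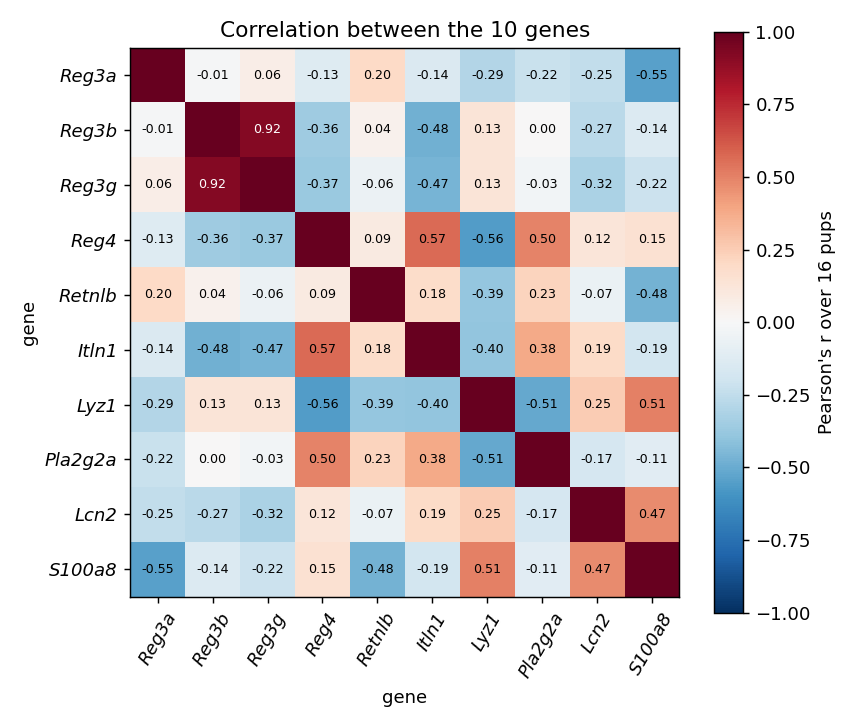
Pearson's r over the 16 pups for each of the 45 pairs of genes (colour and printed value, both axes list the 10 genes). Reg3b with Reg3g, at 0.92, is the one pair with an adjusted p under 0.05 for both r and rho.

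The pathways that control these genes were described from lists of their known parts. Of 23 genes of IL-22, IL-17 and STAT3 signalling, none was called; 2 were higher and 2 lower in CSD pups at an unadjusted p under 0.05, and the median log2 fold change was -0.03 against 0.003 over all genes. The signal-carrying IL-22 receptor chain Il22ra1 ranged from 9.65 to 10.9 in CSD pups (median 10.2) and from 8.96 to 10.1 in VD pups (median 9.54), a log2 fold change of 0.55 ± 0.19 (SE, adjusted p 0.163). The soluble receptor Il22ra2, which binds and blocks IL-22, ranged from 10.2 to 11.4 (median 10.7) and from 10.9 to 11.7 (median 11.1), a log2 fold change of -0.48 ± 0.18 (SE, adjusted p 0.202). The groups overlapped for both. The gene of the list with the smallest p, Il23r, and the cytokine subunit Il23a were well above background on no array. For Reg3b, at background in most pups, the 3 genes most like it were Invs (r = 0.884), Ormdl2 (0.869) and Il1b (0.848). Those most like Reg3g were Ppp1r16a (0.917), 2310033P09Rik (0.878) and Tmem167 (0.873).

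Of 12 genes of type 2 signalling, the pathway known to induce Retnlb and Itln1, none was called, and the median was -0.07. The alarmin Tslp was -0.19 ± 0.07 (SE, adjusted p 0.239) and the receptor chain Il4ra -0.09 ± 0.05 (SE, adjusted p 0.380). The genes most like Retnlb were the chloride channel Cftr (r = 0.823), the carbonic anhydrase Car2 (0.816) and 4921531C22Rik (0.804), and the third gene most like Itln1, after Itlnb and an unnamed transcript beside Itln1 (0.990), was the phosphatase Ctdsp1 (0.835). Of 17 induced epithelial defence genes, none was called and the median was 0.02; Gsdmc2 was 0.42 ± 0.16 (SE, adjusted p 0.205) and Gsdmc4 0.61 ± 0.29 (SE, adjusted p 0.352).

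Close relatives of the 10 genes behaved as follows. None of the 3 other Reg genes was called (median 0.06), and Reg1 and Reg2 were well above background on no array, while Reg3d was 0.06 ± 0.04 (SE, adjusted p 0.524). None of the 10 other resistin, intelectin and mucus lectin genes was called (median 0.03), the galectin Lgals2 being 0.22 ± 0.09 (SE, adjusted p 0.257) and Clec2h 0.43 ± 0.22 (SE, adjusted p 0.381). None of the 14 other lysozyme and secreted phospholipase genes was called (median -0.05), with 4 lower and 1 higher at an unadjusted p under 0.05. The smallest p among them were those of Lyzl4, at -0.42 ± 0.15 (SE, adjusted p 0.184), and Lyz2. The genes most like Reg4 were an unnamed transcript on chromosome 1 (r = 0.974), 2900079G21Rik (0.939) and Fbxo25 (0.862), and those most like Lcn2 were Cytl1 (0.852), the eosinophil ribonuclease Rnase2a (0.847) and Retnla (0.829). For Reg3a, at background, they were AK013187 (0.873), an unnamed transcript on chromosome 17 (0.827) and 2810403A07Rik (0.801).

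Markers of the cells that make these proteins were examined last. Of the 10 Paneth cell markers measured, which include Lyz1 and Itln1, 1 was called, where 1.25% of all genes were. Of these markers, 8 had a log2 fold change above 0 and 2 below it, Lyz1 (-0.34) and Defa21 (-0.11). Only 5 of the 10 were well above background on all arrays, and Defa21 was not one of them. The angiogenin Ang4, a ribonuclease with antimicrobial activity, ranged from 10.5 to 15.7 in CSD pups (median 14.4) and from 7.77 to 14.5 in VD pups (median 9.82), and was higher in CSD pups by 3.66 ± 0.84 (SE, limma adjusted p 0.0465). That call was lost with litter means as samples, with pup numbers as a block, in males only and on slide 2 only, where no gene was called. Whether it held in the other alternatives was not examined. The list's median log2 fold change was 0.29 and its summed signal 14.9 to 18.3 in CSD pups (median 16.7) and 14.6 to 18.0 in VD pups (median 15.2), with Mptx2 the brightest. Of 10 goblet cell markers none was called, 7 having a log2 fold change above 0 and 3 below it, with a median of 0.17. The goblet cell transcription factor Spdef was 0.29 ± 0.07 (SE, adjusted p 0.0526) and the mucus protein Fcgbp 0.59 ± 0.15 (SE, adjusted p 0.0722). None of the 10 epithelial markers (median 0.06; Epcam 0.17, adjusted p 0.257, and Cdx2 0.33, adjusted p 0.437) or the 8 colonocyte markers (median 0.21; Slc26a3 0.45, adjusted p 0.113, and Slc9a3 0.88, adjusted p 0.126) was called. The same held for the 12 small intestine markers (median 0.01; Fabp2 0.63, adjusted p 0.207), the 9 posterior Hox genes (median -0.08; Hoxa13 0.39, adjusted p 0.0902, and Hoxb13 -0.15, adjusted p 0.348) and the 10 pancreas markers (median 0.01; Cpb1 0.37, adjusted p 0.132). Among neutrophil markers the smallest p were those of Mpo, at -0.12 (adjusted p 0.365), and Il1r2, at -0.13 (adjusted p 0.513), and among macrophage markers those of C1qc, at -0.21 (adjusted p 0.143), and Cd68, at -0.26 (adjusted p 0.180). The part of cell composition in the levels of the 10 genes was not tested.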

How the data were processed

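Colon RNA of 16 pups was hybridised to 1-colour (Cy3) Agilent arrays, 1 array per pup. Delivery mode, mother, sex and pup number came from the labels. Per spot, the deposited scanner tables hold mean and local background intensity, the scanner's own corrected intensity, and marks for outliers and for signal well above background. A matrix of log2 values for 27036 genes is also deposited; the authors corrected the intensities (by which method is not given in the sources used here), scaled them by quantiles, dropped dim probes and averaged those of a gene, with limma 3.38 per the submitters' processing notes.

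From the scanner intensities, normexp correction (offset 50), removal of control and outlier spots, log2, quantile normalization and averaging by probe were applied (limma 3.58.1, R 4.3.3). Probes above the 5% quantile of their array on 4 or more arrays stayed in (56366 of 56605), and those sharing a gene name were averaged (36711 genes). Array by array, the correlation with the matrix, which holds 9 of the 10 genes, was 0.977. limma's lmFit and eBayes were fitted to all genes, with delivery mode and sex fixed and the mother random (duplicateCorrelation, consensus 0.0152); litters within a mode were compared with the 4 mothers and sex fixed. Benjamini-Hochberg adjusted p under 0.05 was called. The limma fit of delivery mode was tested on simulated gene values, and the steps before it were not.

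The genes, the lists and the tests were chosen with earlier results of these data known, and the permutation tests of sex and of CSD litters, the look-up by position, the unadjusted counts and the females-only comparison were added after the values were seen. From most lists the text names the genes called, or else the 2 with the smallest p. Of small intestine and pancreas markers only Fabp2 and Cpb1 are given, the gene next in p being at background in most or all pups. Of the IL-22 list, values are given for Il22ra1 and Il22ra2, since Il23r was at background. For each of the 10 genes the text names the 3 genes with the highest Pearson's r over the 16 arrays after removal of delivery-mode means. These were sought among genes well above background on all arrays. Exact permutation tests of group means and permutation tests of correlations (100000 resamples, Python 3.11.15) treat pups as independent. Probe positions are those of the array design (mm9), and start regions are from RefSeq (GRCm38.p6); coordinates of the builds were not mixed. For arrays, precision depends on how many were run. The pups of a mode come from 2 litters, so p-values measure mostly the spread within litters. Alternatives were the correction, scaling, filter, probe choice, model terms, sexes, slides, and each pup or litter left out.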

Additional observations from a re-analysis of the deposited data

Results flagged for a closer look

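In 3 of the 20 sets of 8 pups tested (10 genes, 2 delivery modes), 1 pup lay farther from the rest than Dixon's test at its 95% critical value allows, where chance flags about 1 in 20. Retnlb was at 8.54 in VD pup 6, with a gap of 6.79 log2 units to the next VD pup. S100a8 was at 8.77 in the same pup, with a gap of 1.37. Pla2g2a was at 8.45 in VD pup 4, a female of mother 5. No other VD pup was well above background for it, so this flag is against background and no gap is given. The 20 sets also include Reg3a, at background on all arrays, and Reg3b, at background in most pups. No effect of delivery on the 10 genes differed between the sexes past adjustment.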

How the results depend on the processing

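Between CSD and VD, 460 genes were called, 243 with a normexp offset of 16, 177 and 164 from the scanner-corrected intensity with quantile or 75th percentile scaling, 170 in the deposited matrix, 992 without sex in the model, 10 in females only (added after seeing the data) and 12 on slide 1 only. No gene was called with the replicate block, with litter means as samples, in males only or on slide 2 only, where limma gave 3581, 4034, 3295 and 3790 genes at an unadjusted p under 0.05, against 5307 in the fit reported. Leaving out 1 pup or litter gave 87 to 839 genes: 87 without the litter of mother 5, 839 without that of mother 6, 159 and 131 without those of mothers 3 and 4. It was 278, 300, 238, 271, 257, 180 and 222 without CSD pups 1, 2, 3, 5, 6, 7 and 9, and 145, 243 and 304 without VD pups 4, 5 and 11. Pup numbers shared by both modes did not pair the samples (correlations of deviations from -0.049 to 0.215 over 5 numbers). With the replicate block, the log2 fold change was 0.10 for Reg3b, 0.002798 for Reg3g, 0.52 for Reg4, 0.82 for Retnlb, 1.92 for Itln1, -0.25 for Lyz1, 2.67 for Pla2g2a, 0.007149 for Lcn2 and 0.092 for S100a8.

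Of the 10 genes, 0 to 1 were called between delivery modes on leaving out a pup or litter (Pla2g2a, 3.85 with an adjusted p of 0.00723, without the litter of mother 4), and 0 to 1 between the sexes. Between the CSD litters, 0 were called with scanner-corrected intensity, where Pla2g2a was at -4.77 (adjusted p 0.102) with quantile and -4.82 (adjusted p 0.103) with 75th percentile scaling; without any 1 pup it remained called (adjusted p 0.000879 to 0.0411).

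Directions turned only where no call was made. Reg3b was -0.059 without sex in the model and -0.004264 with litter means. Reg3g was 0.29 on slide 1. Retnlb was -0.27 in females and -0.58 on slide 1. Itln1 was -0.064 in females, against 2.64 without sex in the model and 2.82 with litter means. Lcn2 was 0.095 in males and 0.072 on slide 2, and -0.27 in females. S100a8 was 0.005538 and 0.029 with scanner-corrected intensity (quantile, 75th percentile), 0.004147 in the matrix and 0.11 in females. Leaving out 1 pup or litter gave -0.18 to 0.35 for Reg3b, -0.32 to 0.37 for Reg3g, -0.70 to 1.30 for Retnlb, -0.11 to 0.092 for Lcn2 and -0.17 to 0.18 for S100a8. For Reg3b, the fit on slide 2 (-0.27) and that without the litter of mother 5 (0.35) had 1 delivery mode wholly at background, so neither is a measured fold change or direction. Reg4 (0.31 to 0.68) and Lyz1 (-0.53 to -0.22) kept their direction under every alternative run. Pla2g2a was higher in CSD pups in each (0.15 to 3.85), mostly against VD pups at background. In males, on slide 1, and without VD pup 4 or the litter of mother 5, every VD pup was at background for Pla2g2a. Those fits give no measured fold change or direction. Reg3a, at background on all arrays, was given no fold change.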
